A study of Mus musculus with 28 samples.

Results

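The average effect of deleting an enhancer of Foxp3, conserved non-coding sequence 3 (CNS3), was measured over 3 populations of mouse regulatory T (Treg) cells. It was taken from every Treg library of the series, 21 of 28, which were 12 libraries labelled KO and 9 labelled WT. All mice were male, 6 to 8 weeks old, and carried the Foxp3-gfp reporter allele; the WT mice had it intact, and in the KO mice it lacked CNS3 (Foxp3-deltaCNS3-gfp), so the controls carry the reporter too. The populations were thymic Treg cells (Thy_Treg) and a pair of splenic populations that the titles call Spl_rTreg and Spl_aTreg without expanding r and a, each with 3 WT and 4 KO libraries. The series text speaks of 2 littermates, and which libraries came from which animal is not stated. The p-values therefore measure the spread between these libraries, part of which may be technical. The remaining 7 libraries, of thymic CD4 single-positive cells (Thy_mCD4SP) sorted as conventional T cells, 3 WT and 4 KO, were used for 1 comparison.

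Treg cells are CD4 T cells that restrain immune responses, and the transcription factor Foxp3 defines them. CNS3 is an intronic enhancer of Foxp3 known for raising the chance that a developing thymocyte switches the gene on. The deletion leaves the coding exons in place, so gene counts cannot show directly which libraries carry it.

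Counts in genes ranged from 22038000 to 38516300 per library. Foxp3 read between 447 and 672 CPM (gene counts scaled to a common library size after TMM normalisation) in the 21 Treg libraries and between 1.07 and 3.49 CPM in the CD4SP libraries. The summed level of the 8 tested general T and Treg cell markers was 8164 to 10000 CPM. The share of reads lying in no gene was 42.3 to 45.0% in thymic KO libraries and 46.3 to 49.3% in thymic WT libraries, with no overlap, while the splenic genotypes overlapped. Summed myeloid markers in thymus were 1051 to 1684 CPM in KO and 820.3 to 980.3 in WT, again without overlap, and the mean KO minus WT difference over the splenic populations was -63.5 CPM. None of the 14 tested myeloid markers passed the edgeR test on all Treg libraries (0 higher, 0 lower, 1 at an unadjusted p under 0.05), and Elane was below 1 CPM in every library. Among other markers 1 of 14 for B cells (Cd79b) was higher, and 0 of 11 for dendritic, 0 of 6 for NK and 0 of 3 for erythroid cells passed, with 0 of these 3 lists' members under an unadjusted 0.05. Of 6 tested stromal and epithelial markers, 3 were higher in KO (Col1a2, Col3a1 and Epcam). Col1a2 and Col3a1 were low, at no more than 2.20 and 3.26 CPM, while Epcam read 2.60 to 35.1 CPM. Over all genes tested 2.44% were higher and 1.75% lower. The part of either measure in the results below was not tested beyond the alternatives given with them.

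Across the 3 Treg populations, 323 genes were higher in KO and 232 were lower (edgeR quasi-likelihood F test with population as a covariate, Benjamini-Hochberg adjusted p under 0.05). These are 2.44% and 1.75% of the 13227 genes tested, 4.2% in all. The genes that rose included both chains of the IL-18 receptor, the IL-33 receptor chain Il1rl1, the chemokine Ccl5, the integrin subunit Itgb1 and a set of immediate-early and heat shock genes. The genes that fell included Foxp3 itself and its neighbours, led by Syp, together with the tubulin Tubb2a, the glycolipid enzyme Ugcg and the homing receptor Ccr9. Most changes were small: the median absolute log2 fold change of the 555 called genes was 0.30, 128 exceeded 0.5 and 28 exceeded 1, of which 22 were rises and 6 falls.

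The average was not shared evenly. The fitted effect of 390 of the 555 genes was largest in size in thymus, of 106 in rTreg and of 59 in aTreg cells. Among genes higher in KO, the median log2 fold change was 0.48 in thymus, 0.29 in rTreg and 0.20 in aTreg cells, and among genes lower in KO it was -0.39, -0.20 and -0.17. Of the 555, 535 had one sign in all 3 populations (96.4%, against 34.2% of all genes tested), a share that partly follows from how they were called. The counts leaned on the thymic WT libraries and on whole populations. They were 197 higher and 125 lower without WT thymic library 1, 172 and 123 without library 2, 197 and 144 without library 3 and 395 and 364 without WT aTreg library 3. Without a population they were 52 and 26 (thymus), 74 and 57 (rTreg) and 393 and 359 (aTreg).

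**Figure D1:**
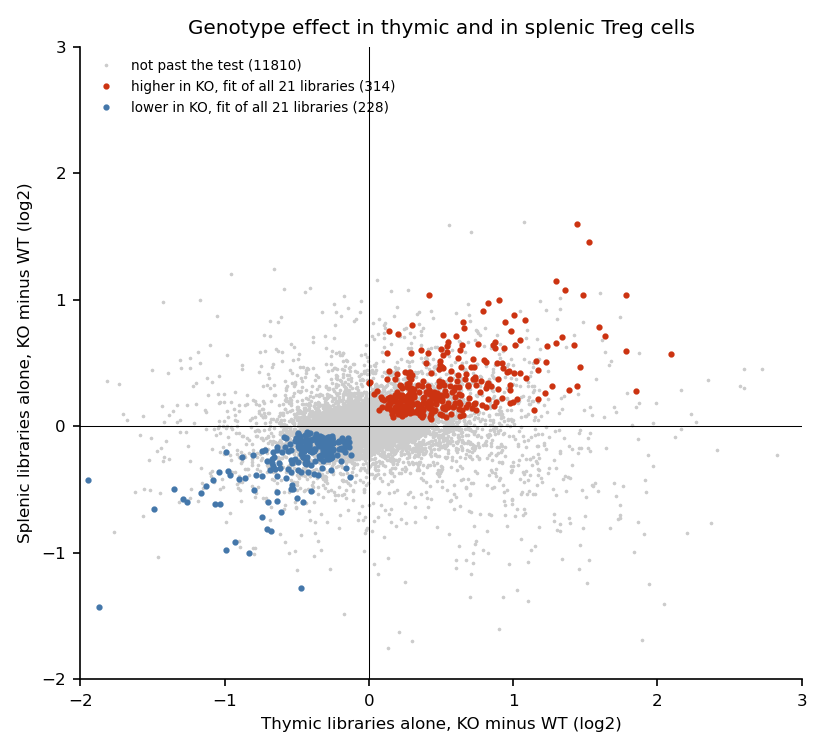
Each point is 1 of 12352 genes, with the KO minus WT log2 fold change fitted on the thymic libraries alone (horizontal) and on the splenic libraries alone (vertical). Red and blue mark genes higher (314) and lower (228) in the fit of all 21 libraries, 9 genes lie outside the axes, and the coloured points spread further along the thymic axis than along the splenic one.

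The thymic and splenic libraries were also fitted apart. They share no library, but whether they share animals is not stated, and deviations of libraries of one genotype and number correlated across populations in all 21 pairs (0.036 to 0.234). The splenic libraries alone gave 52 genes higher (0.406% of 12798 tested) and 26 lower (0.203%). Of the 77 of these that had a thymic value, 67 had the same sign in thymus (87.0%, against 58.5% of all genes), and 32 were called with that sign in the thymic libraries alone. The thymic libraries alone gave 440 higher (3.47%) and 439 lower (3.46%).

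In the stricter sense that every KO library lay beyond every WT library in each of the 3 populations, 36 genes were higher (0.272% of those tested) and 17 lower (0.129%), and all 53 had also passed the test. Within single populations such separation was commoner: KO lay wholly above WT for 11.7% of tested genes in thymus, 4.2% in rTreg and 3.83% in aTreg cells, and wholly below it for 10.5%, 3.65% and 4.19%. Among the genes higher in all 3 populations were Dnahc7a, Fsd1l, Il18r1, Il1rl1, Ccl5, Itgb1, Rgs1, Klf6, Jun, Fos, Fosb, Gem, Hspa1a and Hspa1b. Among the genes lower in all 3 were Syp, Ccdc22, Ppp1r3f, Tubb2a, Ugcg, Ccr9 and Capn11.

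**Figure D2:**
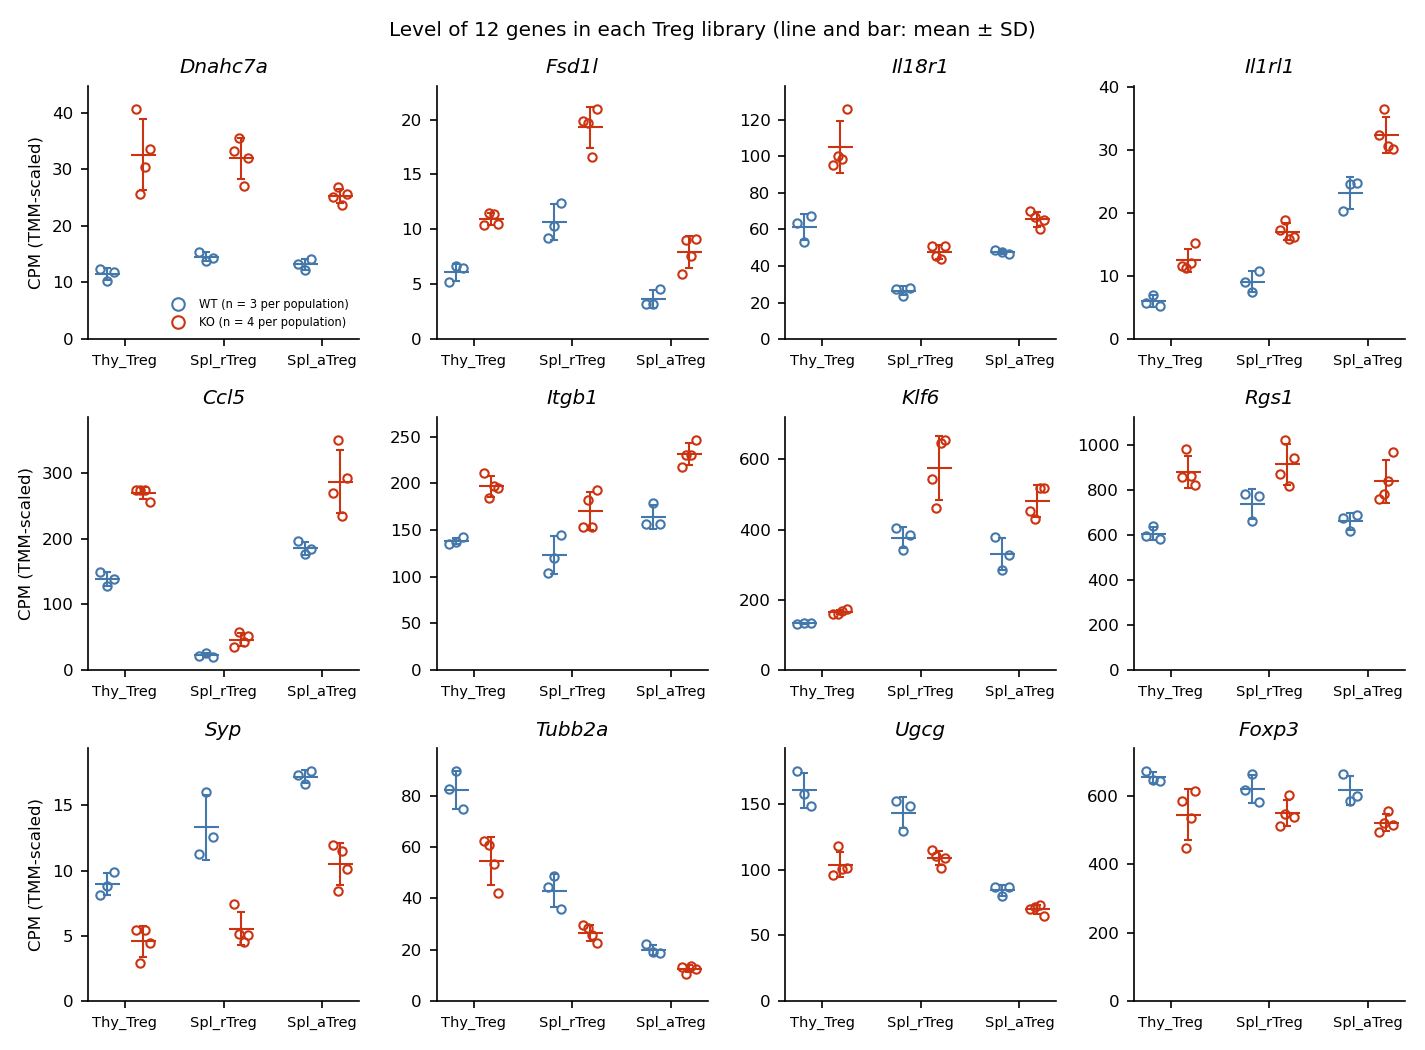
Levels of 12 genes in CPM by population, with 1 point per library, blue for WT (n = 3 per population) and red for KO (n = 4), and lines and bars for the mean and SD. For every gene shown except Foxp3 the KO and WT points do not overlap in any of the 3 populations.

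The IL-1 receptor family, whose members carry signals of IL-1, IL-18 and IL-33, had 3 of 9 tested members higher and 0 lower. Over all genes tested 2.44% were higher and 1.75% lower. The family had a median log2 fold change of 0.12 beside 0.01 over all genes. Il18r1, the ligand-binding chain of the IL-18 receptor, read 63.8, 53.3 and 67.2 CPM in WT thymus and 95.2, 100.3, 98.7 and 126 in KO thymus. In rTreg cells it read 27.5, 23.7 and 28.1 CPM in WT and 50.9, 45.3, 43.7 and 50.9 in KO. In aTreg cells it read 49.0, 47.5 and 46.4 CPM in WT and 70.0, 66.6, 60.4 and 64.9 in KO. The lowest KO library therefore exceeded the highest WT library in each population. The common log2 fold change was 0.69 (SE 0.0644, edgeR adjusted p = 3.16e-07).

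Il1rl1 encodes the receptor chain for IL-33, a cytokine released by damaged tissue. Its WT levels were 5.73, 7.02 and 5.25 CPM in thymus, 8.9997, 7.43 and 10.8 in rTreg and 20.3, 24.6 and 24.7 in aTreg cells. Its KO levels were 11.5, 11.3, 12.1 and 15.2 CPM in thymus, 17.2, 19.0, 15.8 and 16.2 in rTreg and 32.4, 36.5, 30.6 and 30.2 in aTreg cells. Again no KO library overlapped WT in any population, and the log2 fold change was 0.80 (SE 0.0903, edgeR adjusted p = 5.56e-06). Il18rap, the signalling chain of the IL-18 receptor, was low throughout (1.61 to 14.4 CPM) and rose by a log2 fold change of 0.74 (SE 0.157, adjusted p = 0.00773), with overlap between the rTreg libraries. Its call was lost without thymus (adjusted p = 0.122) and without WT number 2 in every population (adjusted p = 0.0635).

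These 3 receptor genes are neighbours on chromosome 1 (GRCm38), with Il1rl1 from 40429570 to 40465415, Il18r1 from 40465552 to 40500854 and Il18rap from 40515362 to 40551705, all on the plus strand. The other family members of the cluster, which spans 477.6 kb, did not pass the edgeR test. The decoy receptor Il1r2 had a log2 fold change of 0.39 (adjusted p = 0.0903). It did pass in limma (0.0333), in limma with libraries of one number blocked (0.0471) and in edgeR on counts summed over same-numbered libraries (0.0317), but not in DESeq2 (0.132). The signalling receptor Il1r1 had -0.19 (adjusted p = 0.819) and Il1rl2, the IL-36 receptor, had 0.11 (adjusted p = 0.899).

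Genes of activated Treg cells rose in part: 12 of 37 listed genes were higher (against 2.44% of all genes tested) and 0 were lower (against 1.75%). The list had a median log2 fold change of 0.26 beside 0.01 over all genes. That median was 0.56 in thymus, 0.19 in rTreg and -0.08 in aTreg cells, so the list as a whole lay above WT in thymus and slightly below it in aTreg cells. Itgb1, the beta-1 integrin subunit that anchors cells to matrix, was the member with the smallest p. It read 135, 137 and 142 CPM in WT thymus against 211, 185, 197 and 195 in KO, 104, 120 and 144 in WT rTreg against 153, 183, 154 and 192 in KO, and 156, 179 and 157 in WT aTreg against 217, 231, 230 and 246 in KO. The groups were apart in every population, with a log2 fold change of 0.49 (SE 0.0525, edgeR adjusted p = 2.52e-06) that was close to even across them (0.51, 0.47 and 0.50).

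Tigit, an inhibitory receptor, was uneven instead. It read 89.3, 91.5 and 97.8 CPM in WT thymus against 175, 153, 180.0 and 168 in KO, while in aTreg cells WT libraries read 710.0, 721 and 739.6 and KO libraries 771, 773, 710.4 and 713. The thymic groups were far apart and the aTreg groups overlapped. The population effects were 0.86 in thymus, 0.63 in rTreg and 0.04 in aTreg cells, they differed by the genotype-by-population test (adjusted p = 0.0221), and the common log2 fold change was 0.50 (SE 0.0965, adjusted p = 0.00389). The other activated Treg genes called higher were Rora, Ebi3, Ahr, Cxcr3, Fgl2, Id2, Ccr8, Cxcr6 and Pdcd1. The chemokine receptor Cxcr3 had 1.19 in thymus, 0.41 in rTreg and 0.04 in aTreg cells, and the transcription factor Rora had 0.43, 0.29 and 0.29. The count of 12 fell to 2 without thymus, to 2 without rTreg cells and to 5 when reads outside genes entered as a covariate.

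Of 24 listed resting T cell genes, 5 were lower (Satb1, Bach2, Klf3, Foxo1 and Ly6c1), 0 were higher and 19 did not pass the test. Among all genes tested 1.75% were lower and 2.44% higher. The list's median log2 fold change was -0.13, with -0.21 in thymus, -0.09 in rTreg and -0.0031 in aTreg cells. Satb1, a chromatin organiser of the T lineage, read 382, 373 and 343 CPM in WT thymus against 243, 285, 255 and 241 in KO, and 339, 287 and 308 in WT rTreg against 254, 246, 237 and 256 in KO. In aTreg cells, where the gene is low, WT libraries read 84.5, 84.4 and 94.3 CPM and KO libraries 76.9, 83.8, 92.3 and 86.4. The genotypes were apart in thymus and rTreg cells and overlapped in aTreg cells, and the common log2 fold change was -0.30 (SE 0.0563, edgeR adjusted p = 0.00285). Bach2, a repressor that holds T cells in a naive state, had -0.39 in thymus, -0.18 in rTreg and -0.11 in aTreg cells. No listed resting gene passed the test in the splenic libraries alone, where Satb1 had an edgeR adjusted p of 0.180, or without rTreg cells. When reads outside genes entered as a covariate 1 passed, Satb1 (adjusted p = 0.0220). Klf3 also lost its call without WT thymic library 1 (adjusted p = 0.0682), the highest among the fits without 1 library, and without WT rTreg library 1.

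Foxp3, on chromosome X from 7573644 to 7595245, was lower in KO in each population. WT libraries read 672, 646 and 642 CPM in thymus, 618, 663 and 582 in rTreg and 665, 585 and 601 in aTreg cells. KO libraries read 586, 447, 534 and 614 CPM in thymus, 512, 546, 603 and 538 in rTreg and 495, 521, 555 and 514 in aTreg cells. KO lay below WT in thymus and aTreg cells and overlapped it in rTreg cells. The common log2 fold change was -0.23 (SE 0.0469, edgeR adjusted p = 0.00671). The call was lost without thymus (adjusted p = 0.0516), without rTreg cells (0.0548) and without WT number 2 in every population (0.0522), and held when any 1 library was left out.

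Within 100 kb of the Foxp3 start, 5 of 7 tested genes were lower in KO and 0 were higher. Over all genes tested 1.75% were lower and 2.44% higher. The 5 include Foxp3 itself and genes that overlap it, given below. Syp encodes synaptophysin, a vesicle membrane protein of neurons, and starts 64.8 kb from the Foxp3 start. It read 8.15, 8.86 and 9.87 CPM in WT thymus against 5.43, 2.91, 5.49 and 4.48 in KO, 11.3, 16.1 and 12.6 in WT rTreg against 7.47, 5.17, 4.56 and 5.05 in KO, and 17.3, 16.6 and 17.6 in WT aTreg against 11.96, 8.43, 11.5 and 10.1 in KO. Every KO library lay below every WT library of its population, with a log2 fold change of -0.98 (SE 0.112, edgeR adjusted p = 7.46e-06). Ccdc22, a subunit of a complex that sorts endosomal cargo, starts 31.9 kb away and had -0.47 (SE 0.0731, adjusted p = 0.000522). Ppp1r3f, a glycogen-targeting subunit of protein phosphatase, had -0.31 (SE 0.0518, adjusted p = 0.00105), and the transcript 4930524L23Rik had -0.27 (SE 0.0512, adjusted p = 0.00373).

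The 4930524L23Rik, Ppp1r3f and Ccdc22 genes overlap Foxp3, and the sources used here do not say whether reads were assigned by strand, so reads of these genes and of Foxp3 may be shared. Syp does not overlap it. Farther out, Prickle3 (83.6 kb, log2 fold change -0.04) and Plp2 (97.7 kb, 0.04) did not pass the test. Between 100 and 1000 kb no further gene was called, so 5 of 32 tested genes within 1000 kb were lower (against 1.75% of all genes tested).

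**Figure D3:**
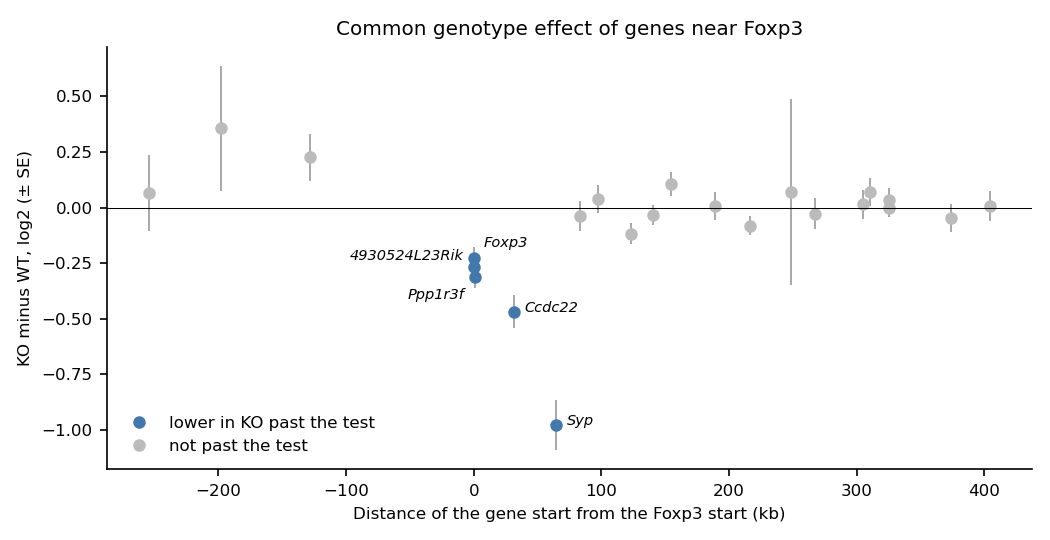
Common KO minus WT log2 fold change (± SE) of tested genes by the distance of their start from the Foxp3 start in kb. The 5 genes lower in KO past the test (blue) lie between -0.04 and 64.8 kb, and Syp at -0.98 is the lowest.

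Tubb2a and Ugcg were lower in KO in all 3 populations. Tubb2a, a beta-tubulin, read 82.5, 89.6 and 74.6 CPM in WT thymus against 62.4, 60.9, 53.4 and 42.0 in KO, 44.2, 48.8 and 36.0 in WT rTreg against 29.7, 28.4, 25.6 and 22.6 in KO, and 22.0, 19.1 and 18.6 in WT aTreg against 13.3, 10.5, 13.8 and 12.6 in KO. The groups did not overlap anywhere, and the log2 fold change was -0.65 (SE 0.0731, edgeR adjusted p = 5.56e-06), with -0.59, -0.70 and -0.67 in thymus, rTreg and aTreg cells. Ugcg, the enzyme that makes glucosylceramide, was chosen after its values were seen; its log2 fold change was -0.44 (SE 0.0521, adjusted p = 1.36e-05), with -0.63 in thymus, -0.40 in rTreg and -0.27 in aTreg cells. It read 149 to 175 CPM in WT thymus against 95.6 to 118 in KO, 129.6 to 152 in WT rTreg against 102 to 115 in KO, and 79.5 to 86.9 in WT aTreg against 65.0 to 72.7 in KO.

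Capn11, which encodes a calpain protease and was also chosen after its values were seen, had 804 counts over the 9 WT libraries and 16 over the 12 KO libraries. WT libraries held 18 to 174 counts each, 9 KO libraries held 0, and the 16 KO counts came from number 3 of each population (10, 4 and 2). The gene was low even in WT, at 0.618 to 5.82 CPM, and its drop passed the test (adjusted p = 3.16e-07). It was also lower in the CD4SP cells, with a mean of 2.06 CPM in WT and 0.035 in KO, where again only number 3 was above 0.

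Dnahc7a, a dynein heavy chain of cilia, had the smallest p of all named genes. It read 12.3, 10.3 and 11.8 CPM in WT thymus against 40.7, 25.6, 30.5 and 33.5 in KO, 15.4, 13.9 and 14.4 in WT rTreg against 33.2, 35.5, 27.1 and 32.1 in KO, and 13.2, 12.1 and 14.2 in WT aTreg against 25.1, 26.8, 23.7 and 25.6 in KO. KO was above WT by a wide gap in each population, with a log2 fold change of 1.19 (SE 0.0843, edgeR adjusted p = 2.62e-09). Fsd1l, which encodes a protein with fibronectin and SPRY domains, rose by 0.93 (SE 0.0918, adjusted p = 5.87e-07), from 5.17 to 6.62 CPM in WT thymus to 10.4 to 11.4 in KO, from 9.20 to 12.4 in rTreg to 16.6 to 20.96, and from 3.16 to 4.56 in aTreg to 5.96 to 9.10.

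Ccl5, a chemokine that draws T cells and monocytes, read 149, 128 and 139 CPM in WT thymus against 274, 274, 275 and 257 in KO, 21.8, 25.9 and 19.7 in WT rTreg against 34.5, 58.1, 42.1 and 51.3 in KO, and 196, 176 and 184 in WT aTreg against 269.7, 351, 235 and 293 in KO. All KO libraries were above WT, with a log2 fold change of 0.87 (SE 0.0835, edgeR adjusted p = 4.37e-07). Ccl5 was listed among CD8 T cell markers, whose sum was higher in KO by 101.1 CPM on average (two-sided exact permutation within populations that treats the libraries as separate, adjusted p = 0.000257). That sum was 459 to 542 CPM in KO and 309.6 to 359 in WT thymus, 105 to 143 and 93.7 to 99.6 in rTreg, and 326 to 459 and 267 to 290.0 in aTreg cells. Of the 7 markers in that list, Ccl5 and Nkg7 were higher and Eomes was lower. Cd8a (log2 fold change -0.46, edgeR adjusted p = 0.0904), Cd8b1 (-0.08, 0.614), Gzmk and Crtam did not pass. The sum therefore does not describe them all, and it contains Ccl5, so its difference is not separate from that of Ccl5. The part of other cells in this result was not tested. In bulk libraries, fewer cells of a type and less RNA per cell cannot be told apart.

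**Figure D4:**
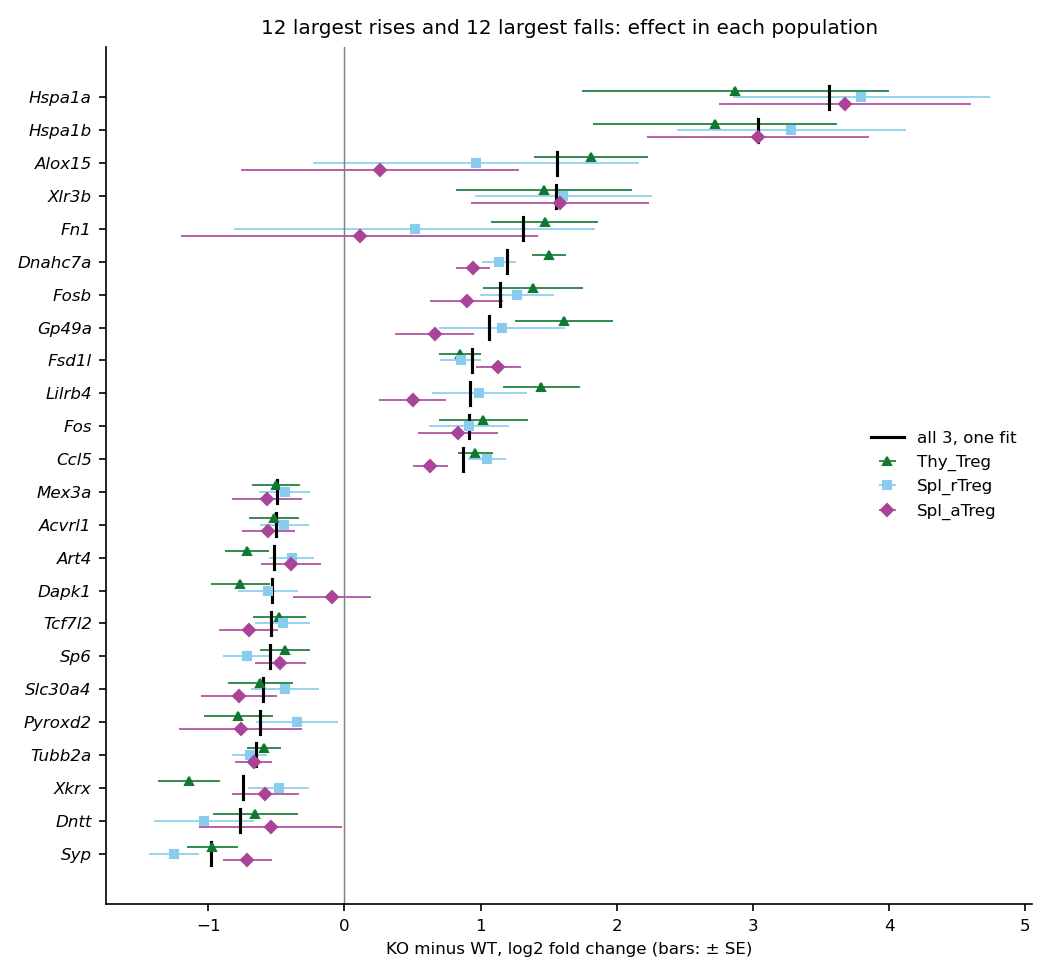
KO minus WT log2 fold change (± SE) of the 12 largest rises and 12 largest falls in thymic (triangles), rTreg (squares) and aTreg (diamonds) cells, with a black line for the common value. Dnahc7a, Fsd1l, Ccl5, Syp and Tubb2a lie on one side of 0 in all 3 populations, while Alox15 and Fn1 have values near 0 with wide bars in aTreg cells.

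Of 20 listed immediate-early and heat shock genes, 8 were called higher (against 2.44% of all genes tested), 0 lower (against 1.75%) and 12 neither. The median log2 fold change was 0.23 and the lowest value was -0.24. Hspa1a and Hspa1b encode near-identical inducible HSP70 chaperones, so uniquely mapped counts may be split or lost between them. Upstream windows of the pair and of Jun are shown because these members rose and hold the same motif, a heat shock element (GAANNTTC, palindromic, capitals), in the 250 bases before the RefSeq transcription start (GRCm38.p6).
Hspa1a chr17:34972157-34972406 minus strand: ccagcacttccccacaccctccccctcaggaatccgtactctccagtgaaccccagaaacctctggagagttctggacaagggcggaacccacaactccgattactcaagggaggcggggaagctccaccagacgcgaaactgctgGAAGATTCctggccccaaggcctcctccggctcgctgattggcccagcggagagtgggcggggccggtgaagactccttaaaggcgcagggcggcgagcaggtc
Hspa1b chr17:34959239-34959488 minus strand: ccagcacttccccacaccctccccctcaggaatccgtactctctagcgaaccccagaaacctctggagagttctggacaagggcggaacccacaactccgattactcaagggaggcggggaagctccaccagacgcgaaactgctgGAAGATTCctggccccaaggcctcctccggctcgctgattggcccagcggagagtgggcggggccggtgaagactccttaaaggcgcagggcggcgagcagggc
Jun chr4:95052223-95052472 minus strand: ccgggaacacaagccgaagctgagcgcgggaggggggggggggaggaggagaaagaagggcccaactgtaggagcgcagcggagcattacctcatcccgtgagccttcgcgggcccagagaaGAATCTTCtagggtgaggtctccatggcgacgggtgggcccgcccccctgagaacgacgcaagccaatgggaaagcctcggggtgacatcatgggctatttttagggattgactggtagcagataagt
The motif occurred in 6.69% of 32851 RefSeq windows of this length and was not found in those of Fos, Fosb and Klf6. The windows of Dusp1 and Klf4, the other listed members called higher, were not examined. The Hspa1a and Hspa1b windows differ at 3 of 250 positions.

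Hspa1a read 0.484, 0.0334 and 1.76 CPM in WT thymus against 2.48, 2.40, 7.13 and 11.5 in KO, 1.40, 0 and 6.90 in WT rTreg against 14.1, 9.17, 43.7 and 93.6 in KO, and 3.81, 0.624 and 8.72 in WT aTreg against 29.2, 16.0, 73.7 and 108 in KO. KO lay above WT everywhere, though the libraries within a genotype were spread over more than the gap between genotypes. The log2 fold changes were 3.56 for Hspa1a (SE 0.569, edgeR adjusted p = 0.000665) and 3.04 for Hspa1b (SE 0.484, adjusted p = 0.00066). Fos, an AP-1 subunit, read 14.3, 10.8 and 17.6 CPM in WT thymus against 19.2, 17.9, 29.9 and 48.8 in KO, 314, 288 and 296 in WT rTreg against 399, 364, 678 and 817 in KO, and 232, 208 and 252 in WT aTreg against 295, 276, 487 and 589 in KO. Its log2 fold change was 0.92 (SE 0.171, adjusted p = 0.00291), and Fosb and Jun, the other AP-1 subunits called, had 1.14 (SE 0.169, adjusted p = 0.000273) and 0.62 (SE 0.0905, adjusted p = 0.000253).

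Within each population the KO order for Fos was 4, 3, 1, 2 and for Hspa1a likewise, and WT number 3 was the highest WT library for Hspa1a in each population. Of the variance within groups, 94.0% lay between genotype-and-number sets for Hspa1a, 94.6% for Fos and 92.9% for Xlr3b, against a median of 38.4% over all genes. With no shared deviation 33.3% would be expected. The share was 86.7% for Capn11, 78.8% for Jun, 60.0% for Syp, 54.6% for Il18r1, 41.0% for Dnahc7a and 14.2% for Il1rl1. With the counts of same-numbered libraries summed over populations (4 KO against 3 WT), Hspa1a (adjusted p = 0.05745), Hspa1b (0.0643) and Fos (0.0804) no longer passed the test. Fos (0.114) did not pass with the handling stress sum as a covariate either. That sum contains Fos itself, so this fit is not a separate test of the gene. Under the summed counts Fosb (0.0469), Jun (0.0226), Klf6 (0.0147), Il18r1 (0.00339) and Dnahc7a (0.000198) did pass.

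**Figure D5:**
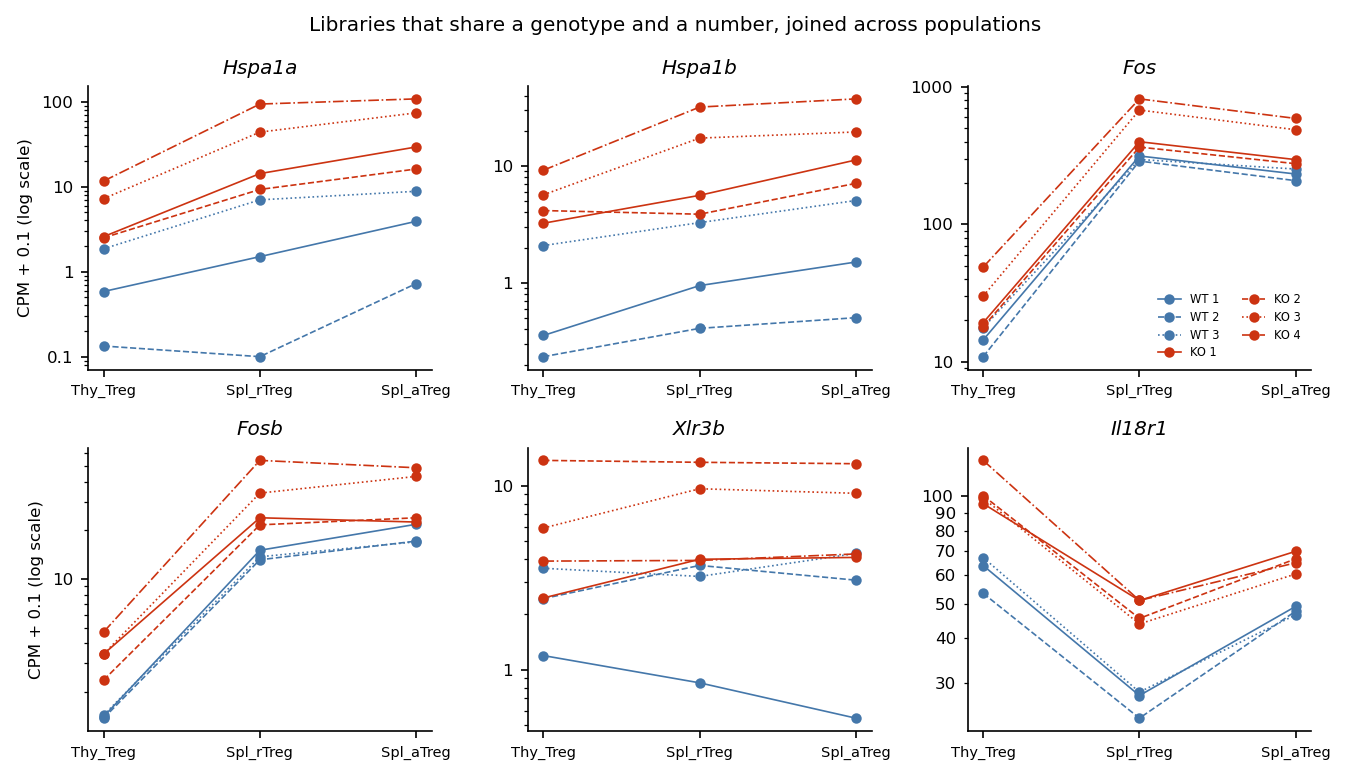
Levels (CPM + 0.1, log scale) of 6 genes, with lines joining libraries of one genotype and one number across the 3 populations. For Hspa1a, Fos and Xlr3b the lines keep much the same order from population to population. For Il18r1 all KO points lie above all WT points of the same population, and the order within a genotype changes in part between populations.

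Klf6, a zinc-finger factor induced early on stimulation, read 132, 135 and 133 CPM in WT thymus against 161, 160.2, 168 and 173 in KO, 404, 343 and 385 in WT rTreg against 544, 462, 645 and 655 in KO, and 378, 286 and 327 in WT aTreg against 454, 429.7, 519 and 519 in KO. No KO library overlapped WT, and the log2 fold change was 0.49 (SE 0.0634, edgeR adjusted p = 5.84e-05). Summed over the handling stress list, KO exceeded WT by 475 CPM on average (two-sided exact permutation, adjusted p = 0.0485). The ranges overlapped in thymus (2136 to 2406 in KO, 2004 to 2288 in WT). They also overlapped in rTreg cells (4098 to 5516 in KO, 3938 to 4189 in WT) but not in aTreg cells. Over the splenic populations alone, the difference in this sum had a permutation adjusted p of 0.0516. Both permutations treat the libraries as separate and do not allow for deviations that same-numbered libraries share. With that sum as a covariate 473 genes were higher and 262 lower.

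Genes induced early by the T cell receptor rose in 4 of 24 cases (against 2.44% of all genes tested) and fell in 0, with a median of 0.05. Rgs1, a brake on chemokine receptor signalling, read 595, 639 and 584 CPM in WT thymus against 858, 984, 863 and 822 in KO, 783, 664 and 774 in WT rTreg against 872, 1024, 819 and 945 in KO, and 678, 619 and 689.7 in WT aTreg against 763, 781, 842 and 971 in KO. Its groups were apart in all 3 populations (log2 fold change 0.40, SE 0.0534, edgeR adjusted p = 8.6e-05). Cd83 (0.24), Bhlhe40 (0.28) and Nr4a2 (0.55) were the other members called, while Nr4a1 (-0.01, adjusted p = 0.964) and Egr2 (0.01, adjusted p = 0.942), textbook reporters of receptor signalling, were not. Of the NF-kB list, 0 of 25 members passed the edgeR test in either direction, 3 had an unadjusted p under 0.05, and limma with libraries of one number blocked also called 0.

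Among Treg signature genes 6 of 26 rose (against 2.44% of all genes tested) and Foxp3 alone fell (against 1.75%). Ikzf4, which encodes the Foxp3 partner Eos, had a log2 fold change of 0.30 (SE 0.0597, adjusted p = 0.00545) and was largest in aTreg cells (0.47). Its call was lost without rTreg cells (adjusted p = 0.0922), without aTreg cells (0.0658), without WT number 2 in every population (0.05196) and with same-numbered libraries summed (0.182). Cd83, Itgb8, Nt5e (the ecto-enzyme CD73), Ecm1 and Plagl1 were the others called higher. Il2ra (0.03, adjusted p = 0.794) and Ctla4 (0.03, adjusted p = 0.813), both central to Treg function, did not pass the test. The count of 6 was 1 without rTreg cells, 3 without thymus and 3 without both thymic KO libraries with most myeloid counts, and Foxp3 was not called in either fit without thymus or rTreg cells.

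Of 32 chemokine receptors and integrins, 6 were higher (against 2.44% of all genes tested) and Ccr9 was lower (against 1.75%). Ccr9, the receptor that guides cells to thymus and gut, read 163, 139 and 156 CPM in WT thymus against 109, 118, 106 and 106 in KO, 189, 171 and 159 in WT rTreg against 150.2, 134, 125 and 147 in KO, and 345, 302 and 302 in WT aTreg against 211, 199, 291 and 272 in KO. KO was below WT in every population (log2 fold change -0.39, SE 0.06, edgeR adjusted p = 0.000456). Itgb8, an integrin subunit that activates latent TGF-beta, rose by 0.38 (SE 0.0866, adjusted p = 0.0126), and was not called without thymus (0.101), without rTreg cells (0.228) or with same-numbered libraries summed (0.108). In the TGF-beta list, Itgb8, the protease Furin and the latency protein Ltbp1 rose, while the co-receptor Tgfbr3 (-0.49) and the ubiquitin ligase Smurf1 (-0.34) fell, out of 19 tested. The 6 higher receptors and integrins became 1 without thymus, 2 without rTreg cells and 3 with either reads outside genes or the myeloid sum as a covariate. The 3 higher and 2 lower TGF-beta genes became 0 and 0 without thymus, 1 and 0 without rTreg cells, and 1 and 1 with reads outside genes as a covariate.

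Ccr9 and the recombination enzyme Dntt were also listed among immature thymocyte markers, of which 2 of 13 were lower (against 1.75% of all genes tested) and 0 higher. The mean KO minus WT difference of their sum was -92.6 CPM (two-sided exact permutation that treats the libraries as separate, adjusted p = 0.000257). It contains Ccr9, which averaged 164 CPM in KO and 214 in WT, so this difference is not separate from that of Ccr9. The sum was 481 to 527 CPM in KO and 603 to 719 in WT thymus, 457 to 495 and 527 to 548 in rTreg, and 445 to 553 and 542 to 610.0 in aTreg cells. Dntt (log2 fold change -0.77, adjusted p = 0.0425) lost its call in 12 of 21 fits that left out 1 library, with adjusted p up to 0.117 without WT thymic library 1. The part of immature cells in the falls above was not tested.

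Other lists had few members called. For comparison, 2.44% of all genes tested were higher and 1.75% lower. Mcl1 (-0.17) and Cflar (-0.17), both inhibitors of cell death, were lower and Bcl2a1b (0.24), a member of a near-identical gene family and so uncertain, was higher, out of 23 apoptosis genes, and Mcl1 was also the 1 of 17 IL-2 and STAT5 genes called. Mcm6, a subunit of the replicative helicase, was the 1 of 33 cell cycle genes called (0.21). Of the helper lineage list, Il18r1, Ifng (0.52) and Ifngr1 rose and Eomes (-0.99) fell, of 23 tested. In the chromatin list Satb1 and the DNA demethylase Tet3 (-0.18) were lower, of 19 tested. None of 33 interferon-stimulated genes and none of 76 cytosolic ribosomal protein genes passed the edgeR test, with 4 and 14 at an unadjusted p under 0.05 and 0 of either called by limma with libraries of one number blocked. Of the ribosomal genes 73 had a positive log2 fold change (median 0.08). The calls on Cflar, Tet3, Eomes, Mcm6 and Ifng each were lost without some single library, with adjusted p up to 0.119, 0.1075, 0.0935, 0.0648 and 0.0672, in each case without a WT thymic library.

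Several of the largest rises came from few libraries or from thymus. Alox15, a lipoxygenase, read 32.6, 5.95 and 15.6 CPM in WT thymus against 87.5, 95.0, 27.4 and 45.3 in KO and stayed below 1 CPM in every splenic library. Fn1, fibronectin, read 66.7, 14.5 and 26.5 CPM in WT thymus against 135, 163, 36.6 and 65.1 in KO and was likewise below 1 CPM in spleen. Their thymic groups overlapped for each gene, the thymic libraries with most Alox15 and Fn1 were KO 1 and 2, and the calls were lost with the myeloid marker sum as a covariate (adjusted p = 0.463 and 0.9905). Over the fits without 1 library, Alox15 passed in 17 of 21 and Fn1 in 13 of 21, with adjusted p up to 0.0857 without WT thymic library 3 and 0.174 without library 2. Lilrb4 (0.92) and Gp49a (1.06), near-identical leukocyte receptors next to each other on chromosome 10, and Xlr3b (1.55), of a multicopy X-linked family, are uncertain because reads may be split among copies.

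The other large falls, whose genotypes overlapped in at least 1 population, included the zinc transporter Slc30a4 (-0.60), the membrane protein Xkrx (-0.75), the transcription factors Sp6 (-0.54) and Tcf7l2 (-0.54), and the receptor kinase Acvrl1 (-0.50). The RNA-binding protein Mex3a (-0.49), the kinase Dapk1 (-0.53), the ectoenzyme Art4 (-0.52) and the oxidoreductase Pyroxd2 (-0.62) complete the 12 largest together with Syp, Dntt and Tubb2a. Pyroxd2 kept its call in 6 of 21 fits without 1 library and Dapk1 in 11, with adjusted p up to 0.129 and 0.0966, both without WT thymic library 2.

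The effect differed between populations for 102 genes (genotype-by-population F test in edgeR, adjusted p under 0.05, 0.771% of 13227), with the thymic effect above the splenic one for 76 and below it for 26. Of the 102, 28 were also among the 555. In 1 fit of group means over all 21 libraries, contrasts within populations called 774 genes higher and 696 lower in thymus (5.85% and 5.26%). They called 25 and 7 in rTreg (0.189% and 0.0529%) and 2 and 1 in aTreg cells (0.0151% and 0.00756%). The 5 strongest differences were in Glrx, Lgmn, Ly6a, Syngr2 and Gzmb. Ly6a, a surface antigen of activated lymphocytes, read 115, 127 and 154 CPM in WT thymus against 254, 237, 264 and 251 in KO, and 900.5, 883 and 1117 in WT aTreg against 778, 916, 764 and 871 in KO. The gene was higher in KO thymus and overlapped between genotypes in aTreg cells (0.93 in thymus, -0.20 in rTreg and -0.22 in aTreg cells, adjusted p of the difference 0.000219). Gzmb, the cytotoxic protease granzyme B, read 10.4, 11.9 and 11.9 CPM in WT thymus against 32.3, 32.2, 39.1 and 29.1 in KO, and its effect was 1.54 in thymus, 0.22 in rTreg and -0.31 in aTreg cells (adjusted p = 0.00164). The count of 102 moved between 29 (without WT thymic library 2) and 220 (without KO thymic library 4). It was 66 without WT thymic library 1, 41 without 3, 49 without KO thymic library 1, 57 without WT aTreg library 3, and 59, 60, 53 and 58 without KO aTreg libraries 1 to 4.

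Against CD4SP cells, the common Treg effect differed for 10 genes (0.075% of 13338, edgeR adjusted p under 0.05), and 26 genes (0.195%) were called in CD4SP cells alone. Foxp3 read 3.23, 3.38 and 3.49 CPM in WT CD4SP cells and 1.27, 1.91, 1.504 and 1.07 in KO, without overlap, a log2 fold change of -1.25 that was lower than in Treg cells by 1.02 (SE 0.166, adjusted p = 0.0031). Lrrc32, which presents latent TGF-beta on Treg cells, had a log2 fold change of 0.00 in Treg cells (248 to 398 CPM in WT, 236 to 377 in KO) and 2.25 in CD4SP cells, where it read 0.11 to 0.52 CPM in WT and 1.12 to 1.84 in KO. Of the genes higher in KO Treg cells, 248 also had a positive value in CD4SP cells, and of those lower 175 had a negative one, with medians of 0.15 and -0.05. Over all genes tested 50.5% had a positive value in CD4SP cells, and 12 of the 555 were called there with the same sign. Capn11 (-5.76), Hspa1a (3.37), Fos (1.33), Syp (-0.84) and Ccdc22 (-0.67) had CD4SP values of the sign seen in Treg cells. By contrast, Il18r1 (0.10) and Ugcg (0.00) were near 0 in CD4SP cells, and Tubb2a (0.14) and Ccr9 (0.40) had the other sign. None of these genes passed the test of a difference between Treg and CD4SP cells. The count of 10 rose to 16 without KO thymic Treg library 2 and to 25 without KO CD4SP library 4.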

How the data were processed

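RNA was extracted with TRIzol, amplified with SMART chemistry and paired-end sequenced (Illumina HiSeq), per the labels' protocols. The tools were Trimmomatic, STAR and HTSeq and the genome build mm10, per the submitters' processing notes. Their versions and settings, the annotation and the use of strand are not given in the sources used. Deposited values are the authors' unnormalised counts for 23420 gene symbols. Reads without a gene entered neither library sizes nor tests: 42.3 to 49.7% of the reads that were in genes, in no gene or ambiguous lay in no gene, 0.608 to 0.763% were ambiguous, and 22.8 to 30.1% of all counted lines were reads that map to several places, which are not counted and lower genes with near-identical copies. Duplicates from PCR cannot be seen in these counts.

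Titles gave each library's group and number. The 27 pairs of libraries within a group differed by more than sampling noise (chi-square per degree of freedom 7.08 to 37.6), so none was counted as a duplicate. The 21 Treg libraries were fitted with edgeR 4.0.16 in R 4.3.3 (quasi-likelihood F test, population plus genotype, TMM factors 0.968 to 1.04, filterByExpr over the 6 groups, 17 residual degrees of freedom, biological coefficient of variation 12.8%), and p-values were adjusted by Benjamini-Hochberg over the 13227 genes kept, at a threshold of 0.05. The population, interaction and CD4SP comparisons used group means, with 28 libraries in the last. Marker sums were compared by a two-sided exact permutation of genotype within populations. It treats the libraries as separate, so its p-values do not allow for deviations that same-numbered libraries share. Alternatives used limma 3.58.1, DESeq2 1.42.0, other filters, covariates and libraries left out. Tested on simulated counts for the common effect over 13094 genes, the fit recovered 90 of 100 genes changed 1.5-fold and 97 of 100 changed 2-fold, with 12 false calls. The simulated libraries were drawn independently, so these false calls do not cover deviations that same-numbered libraries share.

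The members, gene lists and naming rule were chosen with earlier results of these data known. The rule names Foxp3, the 12 largest rises and the 12 largest falls past the test with one sign in the 3 populations and at least 5 CPM in the higher genotype, without predicted genes, small RNAs or antigen receptor segments. It adds, by smallest p, 3 called members per list and 5 called genes per test of a difference. Other genes given with values, such as Capn11, Ugcg, Gem, Il1r2, Nr4a1, Egr2, Il2ra and Ctla4, were chosen after their values were seen or as members of a list. Positions came from GENCODE M21 (GRCm38) (12418 direct matches, 691 through older symbols) and upstream sequences from RefSeq. A gene in a list is a member of a prepared set, not evidence of that function here.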

Additional observations from a re-analysis of the deposited data

Results flagged for a closer look

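In groups of 4 KO libraries, a library was marked when its gap to the nearest other, divided by the group's range, exceeded Dixon's 95% critical value. Of 231 such groups 16 were marked, and chance alone marks about 1 in 20. In thymus these were Ccl5 at 257 CPM in KO 4, Il18r1 at 126 CPM in KO 4, Gem at 18.1 CPM in KO 4, and the share of reads in no gene at 45.0% in KO 4. Also in thymus, Dntt read 33.0 CPM and Il1r2 229 CPM in KO 1, Glrx 70.3 CPM in KO 2 and Bhlhe40 163 CPM in KO 3. Capn11 read 0.400 CPM in thymic KO 3, 0.146 in rTreg KO 3 and 0.0847 in aTreg KO 3, while the other KO libraries were at 0. In rTreg cells, Alox15 read 0.766 CPM in KO 3 and Klf3 112 CPM in KO 2. In aTreg cells, Smurf1 read 12.9 CPM in KO 2, Atp6v0a1 20.4 CPM in KO 1, and the summed T and Treg cell markers 9999.79 CPM in KO 4.

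The KO effect differed between thymic and splenic Treg cells by the genotype-by-population test in edgeR for 7 named genes. The thymic minus splenic log2 difference was 0.53 for Tigit (adjusted p = 0.0221), -0.77 for Tgfbr3 (0.0406), 0.81 for Glrx, 0.95 for Lgmn, 1.14 for Ly6a (each 0.000219), 0.57 for Syngr2 (0.000305) and 1.59 for Gzmb (0.00164). Between Treg and CD4SP cells, the Treg minus CD4SP log2 difference was 1.02 for Foxp3 (adjusted p = 0.0031), -2.25 for Lrrc32 (0.000389), -1.11 for Atp6v0a1 (0.000816), -2.29 for Ccr6 (0.00135) and -0.98 for Lad1 (0.00205).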

How the results depend on the processing

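None of the 80 genes past the common test that the text names reversed its effect in an alternative, 52 stayed past it with any 1 of 21 libraries left out and 17 in every alternative run. For each of the other 28 of the 80, the highest adjusted p with 1 library left out came without a WT thymic library. The sign of Il1r1, which did not pass, turned in some alternatives (log2 fold change from -0.59 to 0.23). Leaving out 1 library, the higher genes ranged from 172 to 395 and the lower genes from 123 to 364. Leaving out 1 number of a genotype in all populations they ranged from 92 to 304 and from 80 to 226, both lowest without WT number 2. Genotype-by-population genes ranged from 29 to 220 over single libraries (102 with all), and differences from CD4SP cells from 7 to 25 (10). The counts of 323 higher and 232 lower genes became 471 and 379 with DESeq2, 137 and 73 when reads outside genes were a covariate, 238 and 150 when the myeloid sum was, 52 and 26 without thymus, 74 and 57 without rTreg cells, and 393 and 359 without aTreg cells; the cause was not tested except that fewer libraries were used in the last 3. An alternative chosen after seeing the data, leaving out both thymic KO libraries with most myeloid counts, gave 213 and 138. Without a filter on low counts, 251 genes differed between populations, 22 from CD4SP cells, and 56 and 20 (chosen after seeing the data; 32 and 3 with the filter) were called in rTreg and aTreg cells. The mean KO minus WT difference in the myeloid sum reversed to -63.5 CPM (adjusted p = 0.018, exact permutation) without thymus, from 105 CPM with it.

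Whether libraries of one number share an animal is not stated. Deviations of libraries of one genotype and number correlated across populations at 0.036 to 0.234 in 21 pairs (9 over 0.1) and those of other numbers at no more than 0.0867; 37 of 42 best matches had the library's own number, and all matches did for 17 of 21 libraries, which is a hint from the data. Across genotypes the 9 same-number pairs within a population had -0.0623 to 0.161 (4 over 0.1). The 18 same-number pairs that differed in both genotype and population had -0.0989 to 0.202 (5 over 0.1). What a shared number stands for was not tested. With the replicate block as a fixed number, 341 genes were higher and 235 lower, 232 differed between populations and 18 from CD4SP cells. With a random block within genotype (correlation 0.0429) the counts were 273 and 213, and with a replicate block made by summing counts within genotype and number they were 88 and 108, of which 79 and 94 were among the 323 and 232. At these depths, genes near 0 CPM in spleen, such as Alox15 and Fn1, give no splenic comparison.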
